A study of Mus musculus with 4 samples.

Results

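The Hox genes and the genes of their homeodomain partners (Meis, Pbx and Pknox) were examined in cultured embryonic sensory neurons that received human PROM1 by lentivirus. The genes were taken by symbol from a deposited table of transcript levels: every listed Hoxa, Hoxb, Hoxc or Hoxd gene with a paralog number, and every listed Meis, Pbx and Pknox gene. This gave 34 genes (44 transcripts) of 11258 genes, namely 26 Hox genes and 8 partner genes. The rule itself uses names and no measured value, but it was proposed with earlier results of these data known.

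All 4 libraries came from dissociated dorsal root ganglion (DRG) neurons of mouse embryos at day 13.5. The neurons were grown with nerve growth factor at 50 ng/ml, with uridine (1 μM) and with fluorodeoxyuridine (1 μM), which acts against dividing cells. Lentivirus was added on day 2 in vitro: pLKO virus in 2 control libraries and virus carrying human PROM1 (CD133) in 2 PROM1 libraries, all without a further genotype or strain in the labels. The labels do not state the spinal levels of the embryonic ganglia, so the mix of axial levels in each library is unknown. The labels also describe re-plating on day 5, without saying whether these libraries were re-plated, and the series text calls the samples biological duplicates. PROM1 itself was not analysed here. FPKM (fragments scaled to transcript length and to the mapped total) is the unit of level throughout, and it allows genes to be compared per length.

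Hox genes encode homeodomain transcription factors that lie in 4 clusters. Within a cluster, low paralog numbers are switched on early and far forward in the embryo, and high numbers later and further towards the tail. The combination held by a neural crest derivative or a neuron therefore records its position along the axis. Meis, Pbx and Pknox proteins belong to the TALE class of homeodomain proteins and bind DNA jointly with Hox proteins. In mouse sensory neurons Hoxd1 stands apart from this positional code, since it is expressed in nociceptors under nerve growth factor signalling and shapes their central projections.

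Promoter sequences are shown for 3 genes that the results return to. The first is that of Hoxd1, whose levels did not overlap between the groups. The second is that of Hoxa5, the most abundant of the 34 genes. The third is that of Hoxb8, which had more motif matches than Hoxb4, the other Hoxb gene in the sequence table. Each is the 250 bases before the RefSeq transcript start, on the gene's own strand, in build GRCm38.p6: chr2:74762730-74762979 (+ strand) for Hoxd1, chr6:52204588-52204837 (− strand) for Hoxa5 and chr11:96281655-96281904 (+ strand) for Hoxb8. Capitals mark motif matches on either strand. The motifs searched were the composite HOX-PBX motif TGATNNAT, the MEIS motif TGACAG, the retinoid receptor half-site AGGTCA, the CDX motif TTTATG and the CCAAT box.
Hoxd1: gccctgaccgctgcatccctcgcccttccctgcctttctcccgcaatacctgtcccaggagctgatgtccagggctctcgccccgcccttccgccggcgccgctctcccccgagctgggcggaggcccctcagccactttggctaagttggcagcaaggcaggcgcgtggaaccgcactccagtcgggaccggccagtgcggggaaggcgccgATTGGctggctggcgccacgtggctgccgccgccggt
Hoxa5: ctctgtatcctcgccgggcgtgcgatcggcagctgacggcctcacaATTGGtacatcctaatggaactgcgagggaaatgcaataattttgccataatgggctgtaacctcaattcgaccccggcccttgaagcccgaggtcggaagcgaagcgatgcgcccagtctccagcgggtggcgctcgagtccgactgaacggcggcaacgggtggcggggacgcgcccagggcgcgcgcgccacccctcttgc
Hoxb8: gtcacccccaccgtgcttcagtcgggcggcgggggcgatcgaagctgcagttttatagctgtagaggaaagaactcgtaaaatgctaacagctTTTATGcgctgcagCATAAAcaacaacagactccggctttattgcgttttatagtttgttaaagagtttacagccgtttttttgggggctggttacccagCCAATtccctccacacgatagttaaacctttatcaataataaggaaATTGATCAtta
The capitals are a CCAAT box in reverse, 37 bases before the start of Hoxd1 and 204 before that of Hoxa5. In Hoxb8 they are CDX motifs in both directions (157 and 143 bases before the start), a CCAAT box (57) and a HOX-PBX match (11). Hoxb2, Hoxb3, Hoxb5, Hoxb6, Hoxb7 and Hoxb9 had no promoter in the sequence table and were not searched. That table matched 20 of the 34 genes, with 22 promoter windows. Among these genes a HOX-PBX match was found in 2 (Hoxb8 and Hoxd11), against 7.68% of 32851 promoter windows of the same length. The retinoid half-site was found in 5 (background 14%), the CDX motif in 4 (10.8%), the MEIS motif in 1 (15.9%) and the CCAAT box in 11 (33.8%). Matches are counted by gene and the background by window. The median share of G and C bases was 59.4% in the 22 windows, beside 52.4% in all 32851 windows. The motifs overlapped nowhere in the 3 windows shown, and a match describes the letters alone.

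The cultures carried a broad Hox code in which Hoxa5 was highest, with Hoxa6 and Hoxd1 next. Hoxa5, which patterns the neck and upper thorax, had 56.6 and 60.4 FPKM in the control libraries and 55.9 and 52.7 FPKM in the PROM1 libraries. It was the most abundant of the 34 genes, its range lay above that of every other one, and its mean stood at the 90.6th percentile of the 10108 genes whose mean reached 1 FPKM. Hoxa6 followed with 33.5 and 23.6 against 46.8 and 15.9 FPKM, and its PROM1 libraries were the highest and the lowest of the 4. Hoxd1 had 32.4 and 36.9 against 21.8 and 28.5 FPKM, above Hoxa6 in the second library of each group and below it in the first. The ranges of Hoxa6, Hoxd1, Pknox2 and Meis3 each overlapped that of the next gene in the order, and the same held for every later neighbour. Next among Hox genes came Hoxa7 and Hoxa4, with means over the 4 libraries of 14.9 and 14.6 FPKM, then Hoxc9 (10.5), Hoxb5 (10.1) and Hoxd8 (8.40).

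**Figure D1:**
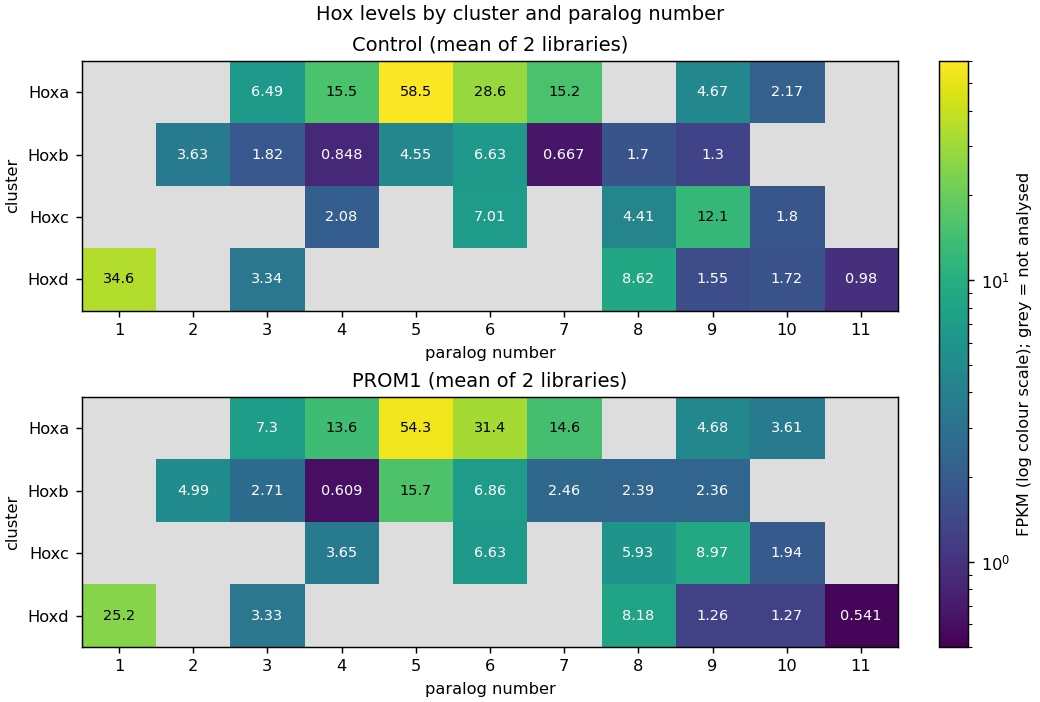
Mean FPKM of each Hox gene in the control group (upper panel) and the PROM1 group (lower panel), n = 2 libraries each, with clusters in rows and paralog numbers in columns on a log colour scale; grey cells were not analysed here. The highest cell in both panels is Hoxa5 (58.5 and 54.3 FPKM), and Hoxb5 is the cell that differs most visibly (4.55 and 15.7 FPKM).

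Levels by cluster were uneven. The 7 Hoxa genes analysed (of 11 in RefSeq) made up 50.5% to 62.1% of the summed Hox FPKM of a library. The 6 Hoxd genes (of 9) made up 15.1% to 23.2%, with Hoxd1 as the largest term, and the 5 Hoxc genes (of 9) 8.42% to 15.4%. The 8 Hoxb genes (of 10) made up 8.57% and 9.78% in the control libraries and 14.9% and 17.9% in the PROM1 libraries. Hoxb was the cluster whose share did not overlap between the groups in the higher direction, while Hoxd had 20.95% and 23.2% against 15.1% and 19.2%. By paralog number, genes 5 to 8 held 57.9% to 65.4% of the summed Hox FPKM, genes 1 to 4 held 24.5% to 31.8% and genes 9 to 11 held 8.26% to 14.5%. Such shares cover the 26 genes analysed, and 13 further mouse Hox genes, among them every gene of paralog numbers 12 and 13, were not analysed here.

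In the library values, the posterior genes were low apart from Hoxc9. Hoxc9, which sets thoracic identity in spinal motor columns, had 5.96 and 18.2 FPKM in the controls, beside 10.5 and 7.48 FPKM with PROM1. Its control libraries lay further apart than its group means did. Hoxa9 was even across libraries (4.29 to 5.06 FPKM). The authors' deposited table gives Hoxa9 9.03 and 10.2 FPKM for control and PROM1, beside 12.9 and 8.97 FPKM for Hoxc9. The place of Hoxc9 above the other posterior genes therefore depends on which values are used. The lumbar-level genes Hoxa10, Hoxc10 and Hoxd10 had means of 2.89, 1.87 and 1.49 FPKM. Hoxd11 ran from 0.413 to 1.48 FPKM and was listed through a non-coding RNA accession alone, so this value does not give the level of its coding transcript. Hoxb4, a gene of the neck region, ran from 0.381 to 0.875 FPKM. Hoxb4 and Hoxd11 were below the mean of 1 FPKM asked for in the test, which leaves 32 of the 34 genes (24 Hox and 8 partner genes) tested.

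**Figure D2:**
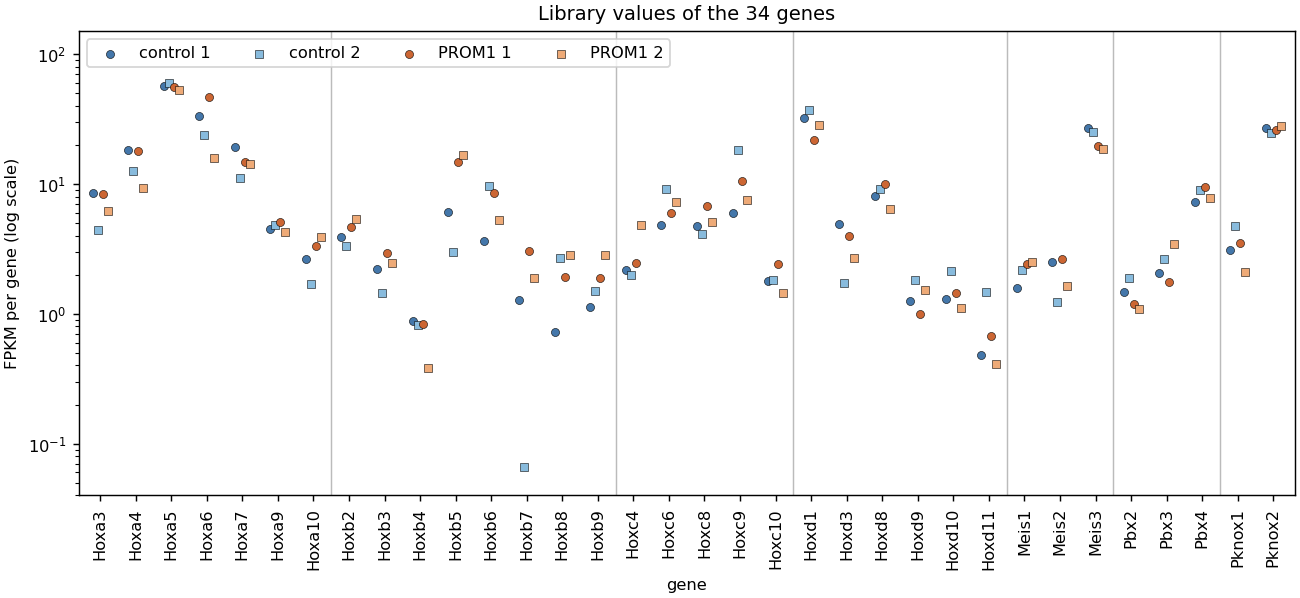
FPKM of each of the 34 genes in every library (log axis), with genes ordered by cluster and paralog number and circles and squares for libraries 1 and 2 of a group. Hoxb5 shows both PROM1 libraries (14.7 and 16.7 FPKM) well above both control libraries (6.112 and 2.998 FPKM), and Hoxb7 has 1 control library at 0.0665 FPKM.

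The comparison of PROM1 with control cultures was made for those 10108 genes by limma on log2(FPKM + 1), a scale on which changes of low genes are understated. No Hox or partner gene passed at an adjusted p under 0.05 (Benjamini-Hochberg, limma), where 0.0198% of all tested genes did. At an unadjusted p under 0.05 there was 1 of 32, Hoxb5, against 4.7% of all genes (2.33% higher and 2.36% lower in PROM1). The smallest adjusted p was 0.939 (limma). The authors' deposited table marks 0 of the 44 transcripts as significant, beside 0.204% of all transcripts, with a lowest q of 0.861. In that same authors' deposited table, 2 of the 44 had an unadjusted p under 0.05 (4.71% of all transcripts): Hoxc4 at 0.0131 and Hoxb5 at 0.047. In bulk cultures, fewer cells of a type and less RNA per cell cannot be told apart, which applies to every difference below.

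Over the 24 tested Hox genes the median log2 change was 0.07, beside -0.03 for all tested genes. This median became 0.26 on leaving out PROM1 library 2, and -0.02 on leaving out PROM1 library 1. Of the 24, 13 had a higher and 11 a lower mean of log2(FPKM + 1) (46.5% and 53.5% of all tested genes), the scale of every count of higher and lower means here. The groups did not overlap for 10: the PROM1 pair was above the control pair for 8 (16.5% of all tested genes) and below it for 2 (17.5%). The summed FPKM of all 26 Hox genes was 231.2 and 229.8 in the controls, beside 257.6 and 211.0 with PROM1. The groups overlap, the difference of means was 3.81 FPKM, and the exact two-sided permutation test gave p = 1. With 2 libraries against 2 that test cannot give a p below 0.333.

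**Figure D3:**
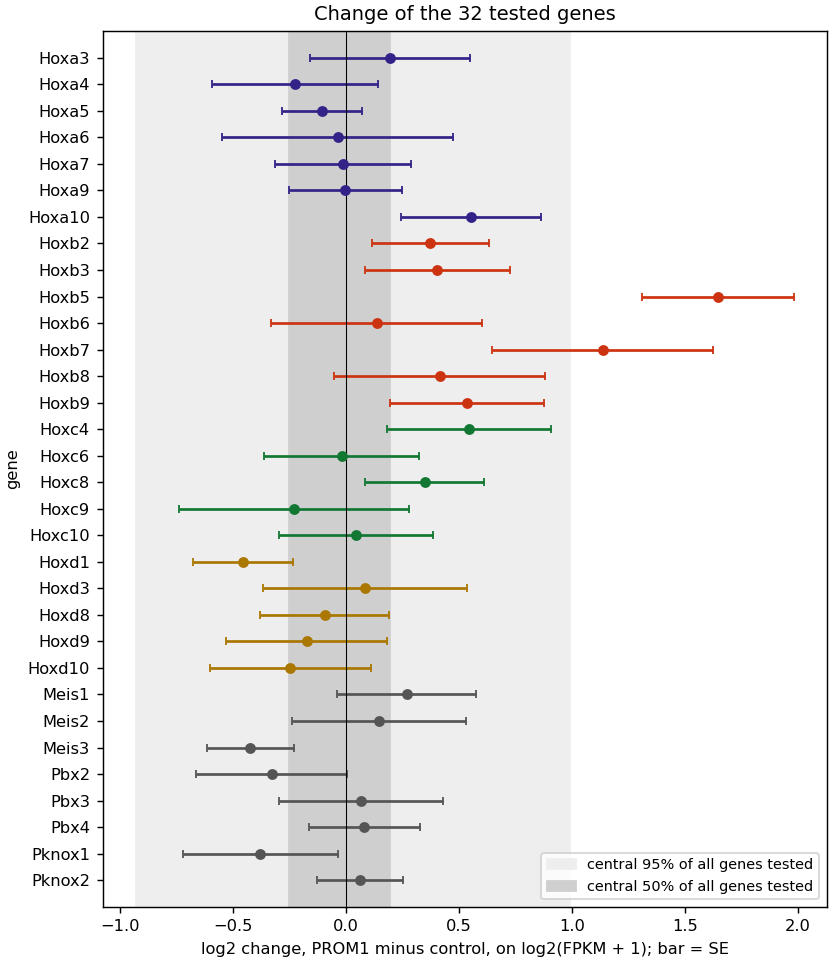
Log2 change (PROM1 minus control, on log2(FPKM + 1)) with its standard error for the 32 tested genes, coloured by Hox cluster with partner genes in grey, over bands that hold the central 50% and 95% of all 10108 tested genes. Hoxb5 (1.64) and Hoxb7 (1.13) lie beyond the upper end of the wider band, at 0.99. The 7 tested Hoxb genes lie to the right of 0, and Hoxb7 reached the minimum level through its PROM1 libraries.

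The Hoxb cluster held the largest differences. Hoxb5, which in mouse acts in enteric neural crest development, had 6.112 and 2.998 FPKM in the control libraries, beside 14.7 and 16.7 FPKM in the PROM1 libraries. Both PROM1 values were more than double the higher control value. Group means were 4.55 ± 2.20 and 15.7 ± 1.36 FPKM (SD, n = 2), and the log2 change was 1.64 ± 0.34 (SE), with a 95% interval of 0.80 to 2.49, unadjusted p = 0.00357 and adjusted p = 0.939 (limma). Over all alternatives, including each library left out, the log2 change ran from 1.23 to 2.06. The authors' deposited table gives Hoxb5 4.52 against 15.5 FPKM, a 3.42-fold higher group value, at q = 0.865. RefSeq places an antisense gene, Hoxb5os, over Hoxb5, and since the use of strand is not given, reads from the 2 strands cannot be told apart.

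Hoxb7, a gene of the trunk region, had 1.27 and 0.0665 FPKM in the controls, beside 3.04 and 1.89 FPKM with PROM1. The PROM1 libraries were both higher, but the 2 control libraries differed more than the group means did in ratio. Its log2 change was 1.13 ± 0.49 (SE; unadjusted p = 0.0643, adjusted p = 0.939, limma), and 0.59 without control library 2. With a control mean of 0.667 FPKM, Hoxb7 reached the minimum for testing through the PROM1 libraries. Hoxb9, which helps to pattern the thorax, had 1.12 and 1.49 against 1.87 and 2.85 FPKM. Hoxb2, a hindbrain regulator, had 3.90 and 3.35 against 4.65 and 5.33 FPKM, and Hoxb3 2.21 and 1.43 against 2.94 and 2.48 FPKM. For these 3 genes the groups did not overlap, with log2 changes of 0.54 ± 0.34, 0.37 ± 0.26 and 0.40 ± 0.32 (SE).

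The remaining Hoxb genes did not separate the groups. Hoxb6 had 3.61 and 9.64 against 8.46 and 5.27 FPKM, and Hoxb8 0.720 and 2.69 against 1.92 and 2.86 FPKM. Hoxb4, which was not tested, was lower in mean, at 0.875 and 0.820 against 0.836 and 0.381 FPKM. The 7 tested Hoxb genes had a higher mean, 5 of them without overlap (46.5% and 16.5% of all tested genes), and the median log2 change was 0.41. The count of 7 is partly set by the minimum level, which kept Hoxb7 and left out Hoxb4. Without control library 1, Hoxb6 (-0.47) and Hoxb8 (-0.14) had log2 changes below 0. In the authors' deposited table Hoxb6 was lower with PROM1 (11.7 against 7.87 FPKM), as was Hoxb4 (1.375 against 0.780 FPKM). The group values of Hoxb2, Hoxb3, Hoxb5, Hoxb7, Hoxb8 and Hoxb9 were higher there. The Hoxb median was 0.43 to 0.65 with 1 library left out (0.65 without control library 2) and 0.69 with a pseudocount of 0.1. Without the minimum level it was 0.41 over 8 genes. With a minimum mean of 5 FPKM it was 0.89, but over 2 genes alone, Hoxb5 (1.64) and Hoxb6 (0.14). Summed over the 8 Hoxb genes, the level was 19.8 and 22.5 FPKM in the controls, beside 38.4 and 37.7 FPKM with PROM1. Hoxb5 alone held most of that gap. Among the paralogs numbered 5, Hoxb5 contributed 9.75% and 4.73% of the FPKM in control and 20.9% and 24.02% in PROM1 libraries, and Hoxa5 the rest.

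In the Hoxd cluster, Hoxd1 was the tested gene whose groups did not overlap. Hoxd1, with the library values given above and its promoter sequence shown, had PROM1 values that were both under the lower control value. Its group means were 34.6 ± 3.18 and 25.2 ± 4.72 FPKM (SD, n = 2), and its log2 difference was -0.45 ± 0.22 (SE; unadjusted p = 0.0911, adjusted p = 0.939, limma), or -0.27 without PROM1 library 1. Haglr, a non-coding RNA read from the opposite strand, whose RefSeq start falls inside the Hoxd1 window printed above, had 5.52 and 5.01 against 3.47 and 3.52 FPKM. Its PROM1 libraries also lay below both control libraries, with a log2 change of -0.48 ± 0.25 (SE; unadjusted p = 0.111, limma). The other tested Hoxd genes overlapped between the groups, with log2 changes of -0.25 for Hoxd10, -0.17 for Hoxd9, -0.09 for Hoxd8 and 0.09 for Hoxd3. The median of the 5 tested Hoxd genes was -0.17, and between -0.33 and -0.03 with 1 library left out (-0.03 without control library 2 and -0.33 without control library 1).

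The Hoxa genes carried most of the Hox RNA, and the median log2 change of the 7 tested was -0.01. With 1 library left out this median was between -0.22 (without control library 2) and 0.22 (without PROM1 library 2). Single genes were imprecise, with log2 changes of -0.04 ± 0.51 for Hoxa6, -0.22 ± 0.37 for Hoxa4 and 0.19 ± 0.36 for Hoxa3 (SE). Hoxa5 had a log2 change of -0.11 ± 0.18 (SE), with a 95% interval from -0.55 to 0.34 (limma), although both PROM1 libraries lay just below both control libraries. Hoxa9 was at -0.00 ± 0.25 and Hoxa7, at 19.3 and 11.1 against 14.8 and 14.3 FPKM, at -0.01 ± 0.30 (SE). Hoxa10, a lumbar-level gene, had 2.65 and 1.69 against 3.34 and 3.88 FPKM without overlap, which is 0.55 ± 0.31 on the log2 scale (SE; unadjusted p = 0.129, limma). Hoxa4 had 18.3 and 12.7 against 17.9 and 9.25 FPKM, and Hoxa3, known for its part in the organs of the throat, had 8.58 and 4.41 against 8.37 and 6.24 FPKM. In both genes, library 1 was higher than library 2 within each group. In RefSeq the gene body of Hoxa3 overlaps those of Hoxa4, Hoxa5 and Hoxa6, and the antisense RNA Hoxaas3 overlaps Hoxa3, Hoxa5 and Hoxa6, so reads may be shared among them. Hoxaas3 had 3.01 and 8.74 against 0.585 and 12.1 FPKM, so the 4 libraries stood in the reverse of their order for Hoxa6.

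Among the Hoxc genes, Hoxc4 and Hoxc8 had PROM1 values that were both over the higher control value. Hoxc4 had 2.18 and 1.98 against 2.45 and 4.84 FPKM, so that its log2 change of 0.54 ± 0.36 (SE) was 0.16 without PROM1 library 2. In the authors' deposited table Hoxc4 was 2.17-fold higher (3.62 against 7.83 FPKM, q = 0.861). Hoxc8, which marks lower brachial levels of the cord, had 4.72 and 4.11 against 6.73 and 5.12 FPKM, or 0.35 ± 0.26 (SE) on the log2 scale. Hoxc6, a gene of the forelimb level, overlapped at 4.83 and 9.20 against 6.01 and 7.25 FPKM. The median of the 5 tested Hoxc genes was 0.05, but 0.38 without control library 2, 0.16 without PROM1 library 2 and 0.10 without PROM1 library 1.

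Hox values varied between libraries of 1 group. The median residual standard deviation within groups was 0.34 (log2) for the 24 tested Hox genes, 0.17 for the 8 partner genes and 0.27 for all tested genes. Library 1 lay above library 2 in both groups for 8 of the 24 Hox genes (32.4% of all tested genes), and library 2 above library 1 in both groups for 5 (24.9%). The 8 genes were Hoxa3, Hoxb3, Hoxd3, Hoxa4, Hoxa6, Hoxa7, Hoxb7 and Hoxc8. They include all 3 tested genes of paralog number 3 and 0 of the 7 tested genes of paralog numbers 9 and 10. This arrangement by paralog number was noticed in the values and has no test.

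**Figure D4:**
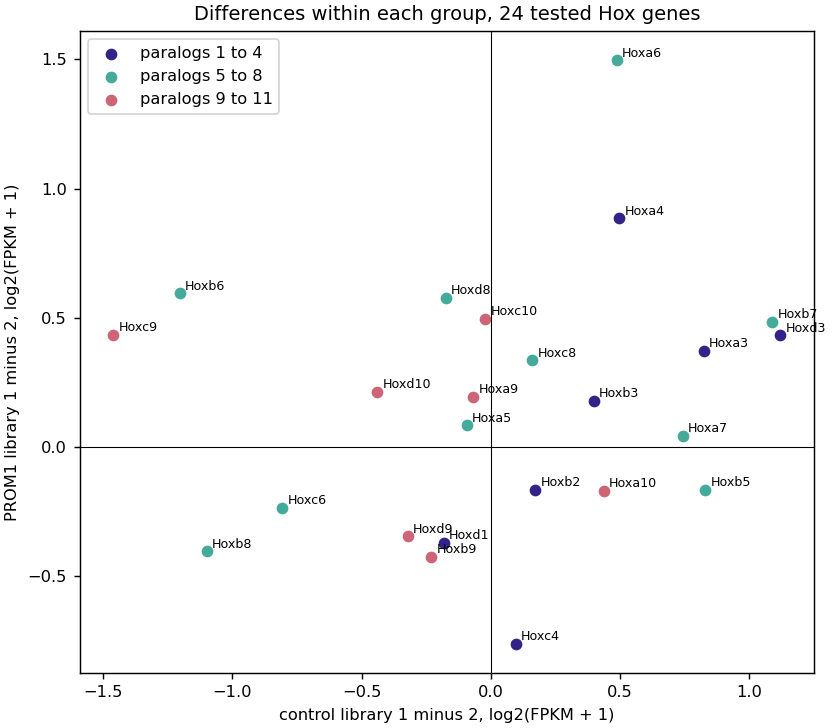
Difference between library 1 and library 2, on log2(FPKM + 1), within the control group (horizontal axis) and within the PROM1 group (vertical axis) for the 24 tested Hox genes, coloured by paralog number. The upper right part, where library 1 is higher in both groups, holds 8 genes, with Hoxa6 highest (0.49 and 1.50).

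The partner genes were led by Pknox2 and Meis3. Pknox2, a TALE protein that pairs with Pbx, was even across libraries, at 26.8 and 24.9 against 26.1 and 28.0 FPKM (log2 change 0.06 ± 0.19, SE). Meis3, which acts in hindbrain patterning in frog and fish, had 27.03 and 25.2 against 19.7 and 18.8 FPKM. Its groups did not overlap and its libraries were close within each group (26.1 ± 1.27 and 19.2 ± 0.671 FPKM, SD, n = 2). The log2 change of Meis3 was -0.42 ± 0.19 (SE), with a 95% interval of -0.90 to 0.06, unadjusted p = 0.0743 and adjusted p = 0.939 (limma). It ran from -0.47 to -0.38 over the fits that omit 1 library. On mRNA accessions alone it was -0.53 (unadjusted p = 0.0412, adjusted p = 0.932, limma). A listed non-coding transcript held 13.9% of the Meis3 sum in PROM1 library 1. Pbx4 had 7.24 and 9.001 against 9.42 and 7.86 FPKM, and Pknox1, a second Pbx-binding TALE protein, had 3.11 and 4.73 against 3.49 and 2.10 FPKM. Pbx2 and Pbx3, which form dimers with Hox proteins, were low: 1.48 and 1.88 against 1.18 and 1.08 FPKM without overlap for Pbx2, and 2.05 and 2.64 against 1.75 and 3.43 FPKM for Pbx3. Meis1, which stabilises Hox and Pbx on DNA, had 1.59 and 2.18 against 2.44 and 2.49 FPKM, and Meis2 2.51 and 1.23 against 2.63 and 1.65 FPKM.

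Of the 8 partner genes 5 had a higher and 3 a lower mean, 1 lay above and 2 below without overlap (16.5% and 17.5% of all tested genes), and the median log2 change was 0.06. Without any 1 library this median was between -0.07 and -0.05. Their summed FPKM was 71.9 and 71.8 in control and 66.7 and 65.3 in PROM1 libraries, a difference of -5.80 FPKM. The exact two-sided permutation test gave p = 0.333, the smallest this design allows. Meis3 accounts for more than the whole of that difference, since its group means differed by 6.90 FPKM.

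Meis1, Meis2, Meis3, Pknox2 and Hoxd8 were listed with 2, 3, 5, 2 and 3 transcripts, and the transcript that carried most of a gene's level often differed between libraries. In Meis1, the transcript NM_001193271 held 99.98% and 100% of the level in control library 1 and PROM1 library 1, and NM_010789 held 99.97% and 99.98% in the second library of each group. The Meis1 sums were 1.59 and 2.18 against 2.44 and 2.49 FPKM. In Meis3, NM_001302472 held 98.8% in PROM1 library 2 and 8% or less in any other library, while NM_001277988 held 46.2% and 74.5% in the control libraries. In Hoxd8, NM_008276 held 62.0% in PROM1 library 2 and at most 7.05% elsewhere. Such divisions come from Cufflinks and were not treated as changes of isoform.

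**Figure D5:**
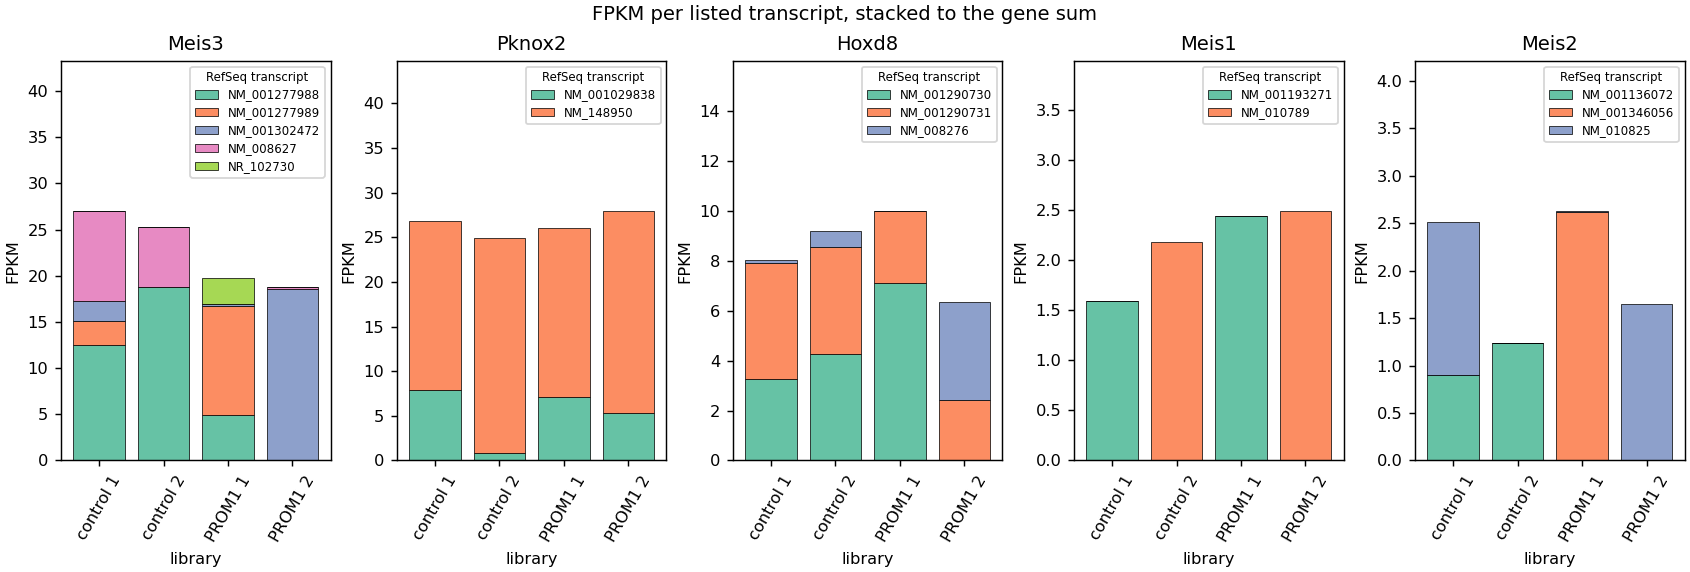
FPKM of each listed RefSeq transcript, stacked to the gene sum, in each library for the 5 genes with more than 1 listed transcript. In Meis1 the main transcript differs between libraries 1 and 2 in both groups, and in Meis2 and Hoxd8 both the main transcript and the sum vary.

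Genes that set or maintain the Hox code were compared from lists. Of 20 Polycomb genes, which keep Hox genes silent, 13 were tested, 3 with a higher and 10 with a lower mean, with a median log2 change of -0.10. Leaving out PROM1 library 1 gave -0.20, and leaving out PROM1 library 2 gave 0.0851. Rbbp7, a histone-binding subunit, had 8.42 and 8.96 against 12.7 and 14.3 FPKM (log2 change 0.58 ± 0.22, SE; unadjusted p = 0.0403, limma). Ring1, a ubiquitin ligase of the complex, had -0.69 ± 0.48 and Phc2, a polyhomeotic subunit, 0.59 ± 0.44 (SE). Of 12 Trithorax and demethylase genes, which keep Hox genes active, 8 had a higher and 4 a lower mean, with a median of 0.09 that was -0.0616 without PROM1 library 1, 0.0011 without control library 2, 0.14 without control library 1 and 0.19 without PROM1 library 2. Dpy30, a core subunit, had 123.8 and 140.5 against 131.5 and 50.9 FPKM, and Kmt2d and Kdm6b had 0.32 ± 0.24 and 0.31 ± 0.21 (SE).

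Retinoic acid, through its receptors, activates Hox genes of low paralog number in the embryo. Of 17 genes of its pathway 4 were tested, 2 with a higher and 2 with a lower mean, with a median of 0.08 that ran from -0.0659 (without PROM1 library 1) to 0.20 (without PROM1 library 2). The receptor genes Rxra, Rxrb and Rarb had log2 changes of 0.33 ± 0.26, 0.20 ± 0.33 and -0.43 ± 0.43 (SE). Of 13 caudal regulators 2 were tested: Nr6a1, an orphan receptor of trunk development, had 0.0426 and 0.547 against 1.53 and 2.48 FPKM, and Gdf11, a signal for the switch from trunk to tail, 6.78 and 6.05 against 4.52 and 6.15 FPKM. The log2 change of Nr6a1 was 1.22 ± 0.42 (SE; unadjusted p = 0.0299, limma), and like Hoxb7 it reached the minimum level through the PROM1 libraries. Among other homeodomain factors of DRG neurons, 12 of 20 were tested and 6 had a higher mean, with a median of 0.01 that ran from -0.16 (without PROM1 library 1) to 0.11 (without PROM1 library 2). Cux2 had 0.647 and 1.36 against 3.56 and 2.70 FPKM, Pou4f3 2.79 and a listed 0 against 5.34 and 5.91 FPKM, and Pou4f1, which defines sensory neurons, 21.6 and 24.7 against 20.4 and 15.2 FPKM. Unadjusted p was 0.0276 for Cux2 and 0.0379 for Pou4f3 (limma), where 4.7% of all tested genes were under 0.05. None of these lists had a gene past an adjusted p of 0.05 (limma).

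DRG neuron markers were detected at widely different levels. The 12 listed DRG neuron markers of 14 summed to 2407 and 2604 FPKM in the controls, beside 2275 and 2743 FPKM with PROM1, with Prph, a neuronal filament, at 894.4 to 1253 FPKM and the subtype factor Runx3 at 0.783 to 1.55 FPKM. Spinal cord markers, which share much of the Hox code, were low for the 2 of 21 analysed: Lhx5 reached 1.03 FPKM and Pax6 was under 0.001 FPKM in every library. Of 16 markers of fibroblasts and mesenchyme, cells that also express Hox genes, 4 were analysed. Col1a1 and Col1a2 lay above the controls without overlap (16.5% of all tested genes), while Fbln1 and Postn overlapped. With control means of 0.892 and 0.498 FPKM, Col1a1 and Col1a2 reached the minimum level through the PROM1 libraries. Unadjusted p was 0.00992 for Col1a1 and 0.0690 for Col1a2, with an adjusted p of 0.939 for both (limma). The 4 summed to 3.01 and 4.72 FPKM in the controls, beside 7.94 and 10.0 FPKM with PROM1, with Postn near 0 in PROM1 library 1 and the others above 0 in every library, and Col1a1 had 0.545 and 1.24 against 3.33 and 4.28 FPKM. Fbln1 had 1.82 and 2.44 against 3.29 and 1.85 FPKM. The 6 analysed of 13 glial markers summed to 78.7 and 56.3 against 48.0 and 46.4 FPKM. The PROM1 pair lay below the control pair for 2, Pmp22 and Mbp (17.5% of all tested genes), and the other 4 overlapped. Pmp22 had 44.9 and 28.8 against 18.8 and 20.7 FPKM (log2 change -0.83 ± 0.27, SE; unadjusted p = 0.0236, adjusted p = 0.939, limma). Apoe was higher at 0.51 ± 0.76 (SE), from 2.215 and near 0 against 3.28 and 0.515 FPKM. The 2 analysed of 12 endothelial and macrophage markers were macrophage genes, summing to 3.80 and 3.51 against 1.79 and 1.99 FPKM. C1qb had 2.30 and 3.51 against 0.339 and 1.16 FPKM without overlap (17.5% of all tested genes lay below). Its log2 change was -1.18 ± 0.40 (SE; unadjusted p = 0.0299, adjusted p = 0.939, limma). With a PROM1 mean of 0.752 FPKM, C1qb reached the minimum level through the control libraries. Aif1 overlapped, at 1.50 and a listed 0 against 1.45 and 0.821 FPKM. The part of these cell types in the Hox results was not tested.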

How the data were processed

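Polyadenylated RNA over 200 nt was sequenced as single reads of 50 nt with a Lexogen SENSE kit, per the labels' protocols. TopHat2, CASAVA and build mm9 are named in the submitters' processing notes. Neither the labels nor the headers give the annotation, strand use or versions. For each RefSeq transcript and library the authors deposited an FPKM from Cufflinks, per the file headers. The deposited columns further hold a single FPKM for each group, p-values and q-values, a log2 ratio and the −log10 of each p. The tool of that comparison is not stated, and their ratio (fold) of group values is quoted as theirs. The table name restricts its 14236 transcripts to status OK, so gene sums cover listed transcripts alone. FPKM carries no read counts, so depth is unknown and no counting interval is given. Library totals ran from 357805 to 385963 FPKM, and 89 to 283 transcripts were listed at 0.

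Symbols came from the descriptions for 13995 transcripts and through a RefSeq GRCm38.p6 table for 241. Transcripts with a missing value (39) were left out and FPKM was summed per symbol. Genes averaging 1 FPKM or more were fitted with limma 3.58.1 (R 4.3.3) on log2(FPKM + 1) with a variance trend, group as the only term, and Benjamini-Hochberg adjustment over 10108 genes. The script was tested on simulated data. Groups came from sample titles. The limma p-values and the SE of log2 changes rest on the spread between these libraries. In that fit each gene's spread is drawn towards the trend over all tested genes. The genes and lists were chosen with earlier results of these data known. Every tested Hox and partner gene was named, the others by range, and up to 3 genes of each further list by size of change. Alternatives were pseudocount, filter, scaling, transcripts, trend, replicate block and each library left out. Promoters come from RefSeq GRCm38.p6, and no coordinate of the mm9 data was used.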

Additional observations from a re-analysis of the deposited data

How the results depend on the processing

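No Hox or partner gene passed an adjusted p of 0.05 (limma) under any of the 421 combinations of gene and alternative that gave a value, and 29 of these changed the direction. The adjusted p of Hoxb5 over its 14 alternatives ran from 0.645 to 1.000, and its log2 change from 1.23 to 2.06. Of the 32 genes, 17 never changed sign. Over all genes, 2 were called, none of them a Hox or partner gene, and 475 had an unadjusted p under 0.05. The count called was 0 per transcript (517 unadjusted) and 0 on mRNA accessions alone (493 unadjusted), and 3 to 16 with 1 library left out. The Hox median ran from -0.0174 to 0.26 and the partner median from -0.0659 to -0.0494 with 1 library left out, and the partner median was -0.13 on genes with 1 listed transcript. The summed Hox difference ran from -19.5 to 27.1 FPKM with 1 library left out, reversing without PROM1 library 1. It was 14.7 FPKM without Hoxa5, Hoxa6 and Hoxd1, an alternative chosen after seeing the data, as were all alternatives of the cluster medians.

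With each library left out in turn, 15 log2 changes changed sign: Hoxa3 (-0.22 to 0.61), Hoxa4 (-0.67 to 0.22), Hoxa6 (-0.78 to 0.71), Hoxa7 (-0.38 to 0.36), Hoxa9 (-0.10 to 0.10), Hoxb6 (-0.47 to 0.74), Hoxb8 (-0.14 to 0.96), Hoxc6 (-0.42 to 0.38), Hoxc9 (-0.96 to 0.50), Hoxc10 (-0.20 to 0.29), Hoxd3 (-0.48 to 0.65), Hoxd8 (-0.38 to 0.20), Meis2 (-0.18 to 0.47), Pbx3 (-0.28 to 0.41) and Pbx4 (-0.0577 to 0.22). Median scaling turned Hoxa7 (0.0133), Hoxa9 (0.0194) and Hoxc6 (0.0055) positive, and quantile normalization Hoxa7 (0.0464). The cause was not tested. With the replicate number as a block, 2 genes were called as without it, 639 had an unadjusted p under 0.05, among them 3 of the 32 Hox and partner genes (Hoxb5, Hoxb7 and Hoxd1, each at an adjusted p of 0.745 by limma) in place of 1, and in this balanced design the block cannot alter a log2 change. The summed FPKM values had no paired test. Differences between library 1 and library 2 correlated between the groups across 10108 genes at r = 0.139, and with 2 pairs this does not show that the numbers pair the samples. Depth is unknown, so the precision of low genes such as Hoxb7 cannot be stated.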

Other observations

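The authors' group FPKM and the library FPKM disagree for several Hox and partner genes. In the authors' deposited table Pbx2 has 10.7 and 9.58 FPKM for control and PROM1, while its library values were 1.08 to 1.88 FPKM. Hoxb8 has 8.79 and 11.1 FPKM in the authors' deposited table against library values of 0.720 to 2.86 FPKM, and Hoxc8 and Hoxc10 have control group values 2.40 and 2.90 times their library means. Among the genes' transcripts with a library mean of at least 1 FPKM, the control group value was over 2 times that mean for 6 of 36, against 5.45% of all such transcripts. For PROM1 it was 8 of 39, against 5.57%. For Hoxb5 the ratio was 0.993 in control and 0.987 in PROM1, so the size of its difference is alike in the authors' deposited table and in the libraries.

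The listed Meis3 transcript NM_008627 has 10.0 and 8.59 FPKM as group values in the authors' deposited table, while its PROM1 library values were 0.0735 and 0.219 FPKM. The Meis3 sum used here rests on library values alone.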
